A study of Homo sapiens with 8 samples.

Results

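Cells of SiHa, a human cervical squamous carcinoma line, were profiled for trimethylated lysine 9 of histone H3 (H3K9me3) in cells that had stayed on the seeded side of a transwell membrane. The libraries described here are the 4 of 8 in the series that came from this non-migrated fraction, chosen by their labels: 1 input library of sonicated chromatin and 1 H3K9me3 immunoprecipitation in each of 2 replicate sets, harvested 10 h after seeding. The cells carried no stated genetic change and no drug. Set 1 was made with gel extraction and an Illumina kit, and set 2 with beads and another kit, so kit and set cannot be told apart. All libraries come from 1 line, and the non-migrated cells are those that had not crossed by the time of harvest. The assay reads a chromatin mark and not RNA, so the identity of the cells could not be checked by expression.

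H3K9me3 is written by SUV39H1, SUV39H2 and SETDB1 and is bound by heterochromatin protein 1, which the CBX1, CBX3 and CBX5 genes encode. It is best known from the repeats around centromeres, from clusters of zinc finger genes, and from genes of other lineages that a cell keeps silent. KRAB zinc finger proteins bind transposable elements and bring TRIM28 and SETDB1 to them. Where promoters are rich in CpG dinucleotides and active, the mark is usually scarce.

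The 5 promoter sequences printed next show the range that the results below cover, from CpG-rich to CpG-free and from well above to far below input. They were taken from RefSeq (GRCh38.p14), run 5′ to 3′ from 250 bases before to 50 after the gene's start, and were chosen after their values were seen. Capitals mark each CG dinucleotide, which reads the same on both strands. The H3K9me3 windows themselves are in hg19 and span 2100 bases, so their coordinates do not match these. SLIT2 (chr4:20251655-20251954, plus strand) encodes a secreted guidance cue and holds 36 CG, a number that 12.5% of RefSeq promoters reach. ZNF844 (chr19:12064481-12064780, plus strand), a zinc finger gene, holds 16, and OR8J3 (chr11:56140152-56140451, minus strand), an olfactory receptor gene, holds 0. FOS (chr14:75278578-75278877, plus strand), an immediate-early transcription factor gene, holds 30, and PTTG1IP (chr21:44873641-44873940, minus strand) holds 38. Of all 27305 RefSeq promoters in the table, 4.16% hold no CG, and the median is 14.
SLIT2: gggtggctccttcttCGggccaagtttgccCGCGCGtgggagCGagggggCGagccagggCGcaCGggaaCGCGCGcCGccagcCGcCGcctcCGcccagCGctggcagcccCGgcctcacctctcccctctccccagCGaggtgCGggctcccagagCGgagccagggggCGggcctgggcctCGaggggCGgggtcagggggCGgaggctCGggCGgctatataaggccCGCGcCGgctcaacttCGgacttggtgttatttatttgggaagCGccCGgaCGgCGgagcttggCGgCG
ZNF844: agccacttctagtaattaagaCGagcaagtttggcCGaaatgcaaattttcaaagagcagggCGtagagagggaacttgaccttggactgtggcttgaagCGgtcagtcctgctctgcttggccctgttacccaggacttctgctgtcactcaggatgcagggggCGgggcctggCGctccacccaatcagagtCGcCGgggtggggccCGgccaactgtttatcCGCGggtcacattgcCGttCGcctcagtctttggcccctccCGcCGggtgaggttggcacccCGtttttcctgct
OR8J3: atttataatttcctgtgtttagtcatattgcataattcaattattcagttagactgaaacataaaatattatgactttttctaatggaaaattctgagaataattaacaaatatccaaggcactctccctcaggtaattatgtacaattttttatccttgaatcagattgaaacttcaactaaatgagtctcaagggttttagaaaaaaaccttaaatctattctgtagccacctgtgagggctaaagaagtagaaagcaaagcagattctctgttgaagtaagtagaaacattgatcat
FOS: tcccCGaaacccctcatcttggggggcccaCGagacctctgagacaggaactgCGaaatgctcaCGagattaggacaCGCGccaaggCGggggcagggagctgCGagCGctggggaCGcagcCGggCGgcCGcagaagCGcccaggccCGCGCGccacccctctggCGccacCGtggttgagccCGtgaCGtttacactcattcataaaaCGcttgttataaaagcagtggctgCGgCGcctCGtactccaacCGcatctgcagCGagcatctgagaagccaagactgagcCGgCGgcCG
PTTG1IP: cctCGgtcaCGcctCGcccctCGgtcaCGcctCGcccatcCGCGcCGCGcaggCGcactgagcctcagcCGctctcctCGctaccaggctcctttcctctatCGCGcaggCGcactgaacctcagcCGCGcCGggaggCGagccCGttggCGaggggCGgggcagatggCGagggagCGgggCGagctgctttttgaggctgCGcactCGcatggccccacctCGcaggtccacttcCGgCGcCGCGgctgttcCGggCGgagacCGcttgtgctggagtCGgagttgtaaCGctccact

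H3K9me3 stood far above input at the first 3 of these genes and almost without reads at the last 2. In RPM, here reads per 1000000 of a library's scaled size, the SLIT2 window held 9.15 in the input and 54.1 in the H3K9me3 library of set 1, and 16.1 and 132 in set 2. The ZNF844 window held 13.7 and 66.1 in set 1 and 11.4 and 99.5 in set 2. The OR8J3 window held 9.15 and 30.1 in set 1 and 8.97 and 43.9 in set 2. In each of these 3 windows both H3K9me3 libraries lay above both inputs. Windows at the ends of the ranking and of the lists were named for extreme values and only if both sets shared a sign, here and below. That their H3K9me3 and input libraries do not overlap, where stated, therefore largely follows from this choice. The share of all windows without such overlap was not counted. The FOS window held 29.7 and 0 in set 1 and 56.8 and 1.95 in set 2, and PTTG1IP 27.4 and 0 in set 1 and 64.0 and 0 in set 2, so that both H3K9me3 libraries lay below both inputs. The fitted fold over input was 7.71 for SLIT2 (log2 2.95 ± 0.33 SE, limma adjusted p = 3.1e-17, n = 2 sets), 7.68 for ZNF844 (log2 2.94 ± 0.36, adjusted p = 2.5e-14) and 4.47 for OR8J3 (log2 2.16 ± 0.44, adjusted p = 1.0e-05). The 2 H3K9me3 reads of FOS were 3.17% of the 63.2 that its input predicts, with an exact Poisson interval at 95% of 0.383% to 11.4%. PTTG1IP had 0 reads against 70.1 predicted, which made it at least 23.4-fold lower with a floor of 3 reads over both libraries; such intervals and floors cover counting error only.

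**Figure D1:**
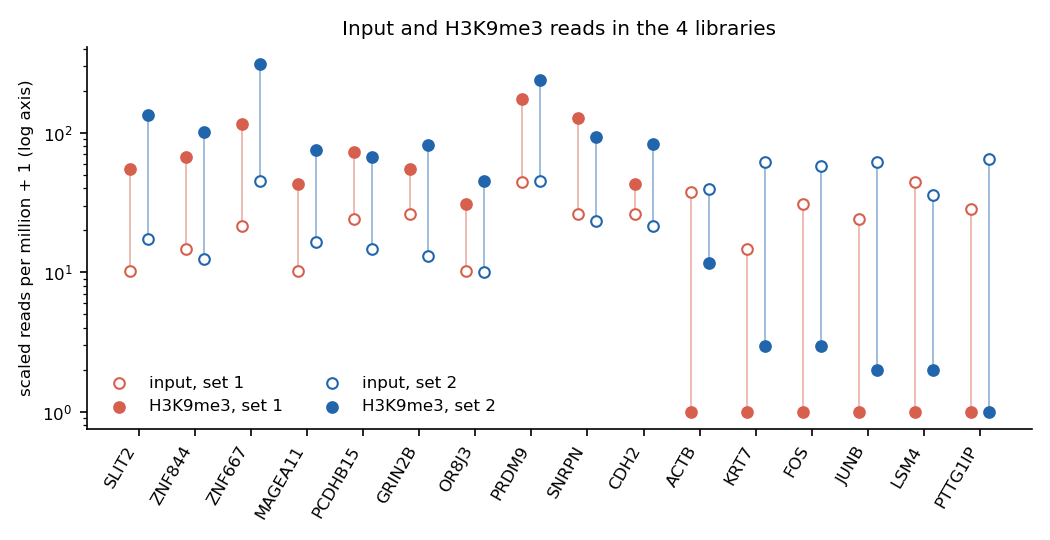
RPM plus 1 (log axis) in the 4 libraries for 16 named windows; open circles are input, filled circles H3K9me3, orange set 1 and blue set 2. From SLIT2 to CDH2 every filled circle lies above its open circle, and from ACTB to PTTG1IP every filled circle lies below it, with PTTG1IP at 0 reads in both H3K9me3 libraries. Windows from the ends of the ranking and of the lists were named only if both sets shared a sign.

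Promoter windows of the 4 libraries held 388191 (input) and 164766 (H3K9me3) reads in set 1 and 1729061 and 1137376 in set 2, with a median of 10, 3, 40 and 22 reads per window in that order. Windows were 38157 in number, each under the symbol of an overlapping Ensembl gene. Of the 20474 whose strand could be set against RefSeq, 27.0% started on the strand opposite to the gene, so a window can belong to another transcript than its name says; the strand is given below where it is opposite or not known. For gene lists, 1 window stood for each gene, the one that held most reads over the 4 libraries. The labels report much duplication in set 1 and call set 2 a second biological replicate. The p-values draw only on the spread between these sets, pooled over all windows, and not on a window's own spread.

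Across all windows, values were continuous, with enriched promoters at one end and promoters below input at the other. Of 36524 windows tested, 8371 were enriched over input (22.9% of windows tested) and 9128 lay below it (25%), by limma at a Benjamini-Hochberg adjusted p under 0.05. A change of at least 2-fold was fitted for 6306 and 8706 of them. Of the enriched windows 92.8% lay above input in both sets, and of the lower ones 91.8% lay below it in both. Enriched windows took 47.0% of the promoter reads of the H3K9me3 library and 22.2% of those of the input in set 1, and 49.4% and 20.6% in set 2. Lower windows took 6.88% and 26.8% in set 1, and 8.25% and 34.5% in set 2. Fitted log2 values ran from -2.71 at the lower twentieth to 1.60 at the upper twentieth, around a median of 0.01. Values of the 2 sets correlated across windows at r = 0.658 and rho = 0.671, as a description, since windows share libraries and are not replicates. These counts depend on pooling the variance over windows and on the set as a block: without the block 2294 windows were enriched (6.28%) and 4473 lower (12.2%), and with limma's trend method in place of precision weights 4954 and 6110. Without the set 1 input they were 1835 and 5499, without the set 1 H3K9me3 library 1019 and 2034, without the set 2 input 779 and 2960, and without the set 2 H3K9me3 library 6 and 0, each also without the block.

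The zero point is relative. With the constants the authors had added to each library in place of the scaling used here, 2767 windows were enriched and 15086 lower, and the median window lay at -0.64. Scaled to ribosomal protein and oxidative phosphorylation promoters, they were 15224 and 5280, with the median at 0.60. Gene lists are therefore also given by how far their median lies from the median of all genes. A scaling shifts all windows by nearly the same amount, so this distance can hardly depend on it. It moved by at most 0.015 log2 over the scalings. Taken gene by gene, 6090 of 23222 were enriched (26.2%) and 5423 lower (23.4%), and the median log2 was 0.12. These shares are the background for every list below. They include 6727 clone-named transcripts, of which 36.9% were enriched and 10.9% lower (median 0.57). Windows of RefSeq protein-coding genes were enriched in 17.8% and lower in 31.0%. A list near the background can therefore still differ from protein-coding genes at large. Genes in none of the lists were enriched in 18.5% and lower in 32.4%.

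Zinc finger genes of chromosome 19 had a higher median than any of the 48 gene lists in the fit over both sets, though not in set 1 alone. These genes encode C2H2 zinc finger proteins, most with a KRAB domain that recruits TRIM28. On chromosome 19, 154 of 228 tested were enriched and 12 lower, with a median log2 of 1.53, which is 1.40 above all genes (1.15 in set 1 alone, where cancer-testis families and clustered protocadherins lay 1.28 above, and 1.41 in set 2 alone). Elsewhere in the genome, 79 of 249 zinc finger genes were enriched and 51 lower, with a median of 0.19. The other genes of chromosome 19 lay on the opposite side: 236 of 1052 were enriched and 353 lower, with a median of -0.33. Without the block, 50.9% of the chromosome 19 zinc finger genes were enriched, against 7.67% of all genes.

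Position on chromosome 19 separated the zinc finger genes further. The centromere gap is here the widest gap between neighbouring windows of a chromosome, a stand-in for the centromere itself. Of the 33 zinc finger genes that lie on the short arm between 19 Mb and this gap, 29 were enriched and 0 lower, with a median of 2.07. On the long arm from 50 Mb onward, 75 of 97 were enriched and 5 lower (median 1.64). The 41 on the short arm below 19 Mb had a median of 0.69 with 19 enriched, and the 57 on the long arm below 50 Mb a median of 0.85 with 31 enriched. Single members reached far above their inputs. ZNF729 (strand not known) held 6.86 and 84.1 RPM in set 1 input and H3K9me3, and 15.6 and 97.6 in set 2 (log2 2.75 ± 0.35). The window of ZNF667, on the opposite strand, held 20.6 and 114 in set 1 and 44.3 and 307 in set 2 (log2 2.76 ± 0.20). Both H3K9me3 libraries exceeded both inputs in each. Zinc finger genes outside the clusters could be nearly free of the mark: ZNF319 on chromosome 16 (opposite strand) had 18 and 147 input reads and 0 and 7 H3K9me3 reads (log2 -3.64 ± 0.59, limma adjusted p = 2.5e-08).

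**Figure D2:**
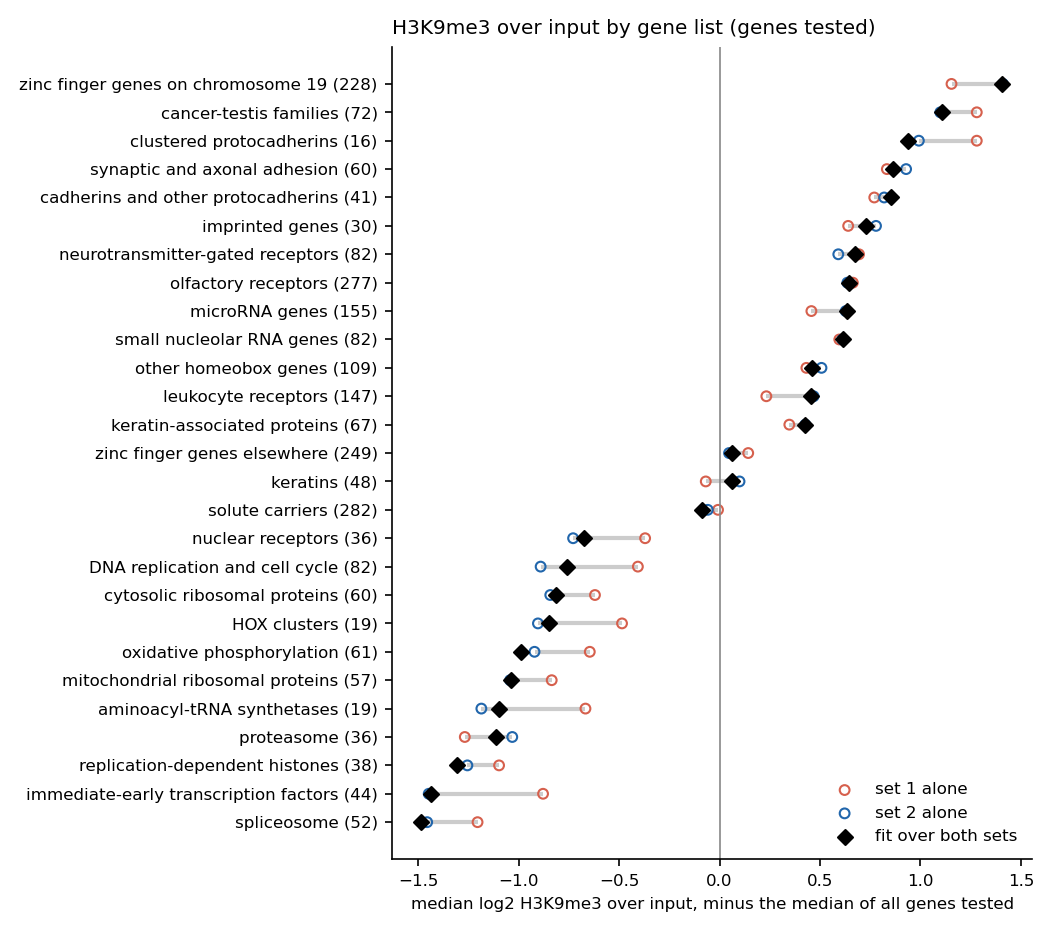
Median log2 of H3K9me3 over input minus the median of all genes tested, for 27 gene lists or subsets; black diamonds are the fit over both sets, open circles each set alone, and brackets give the genes tested. Zinc finger genes on chromosome 19 stand highest at 1.40 and spliceosome genes lowest at -1.48; keratins and solute carriers lie near 0.

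Germline genes that tumours can switch on were marked as a group. Cancer-testis families encode antigens normally limited to testis. The list was drawn by symbol and also takes in TEX and SPACA genes, whose members were not checked for this trait. Of 148 on the table, 72 passed the filter on low reads, and of these 52 were enriched and 1 lower, with a median of 1.23. All 14 MAGE genes tested were enriched, with log2 values from 0.90 to 2.22, and 6 of 7 SSX genes were (median 1.64). Among 8 GAGE, PAGE and XAGE genes, 7 were. MAGEA11 held 9.15 and 42.1 RPM in the input and H3K9me3 libraries of set 1, and 15.6 and 74.2 in set 2 (log2 2.22 ± 0.36), and XAGE5 32 and 78.1 in set 1 and 30.5 and 144 in set 2 (log2 2.10 ± 0.25). Neither window overlapped between input and H3K9me3 libraries. Much of this list lies on X, where 54.1% of all 867 genes tested were enriched: on X 40 of 49 cancer-testis genes were, and on autosomes 12 of 23. SPACA7, a sperm acrosome gene on chromosome 13, held 6.86 and 66.1 in set 1 and 19.1 and 102.5 in set 2 (log2 2.48 ± 0.33). TEX19 was the lower member (strand not known, log2 -1.0 ± 0.30, limma adjusted p = 0.0031, and 0.20 without the block). Of 12 TEX genes tested, 6 were enriched and 1 lower (median 0.62).

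Several lists of neuronal and adhesion genes lay above all genes, and others did not. Clustered protocadherins, which give neurons their surface identity, were enriched in 13 of 16 and lower in 0 (median 1.06). PCDHB15 held 22.9 and 72.1 RPM in set 1 and 13.8 and 66.4 in set 2 (log2 2.12 ± 0.35), and both H3K9me3 libraries lay above both inputs. PCDHA1 and PCDHGA1 reached log2 2.00 ± 0.27 and 2.10 ± 0.24. Cadherins and other protocadherins were enriched in 24 of 41 and lower in 3, and synaptic and axonal adhesion genes in 38 of 60 and lower in 6, with medians of 0.97 and 0.99. OPCML, which encodes a neural adhesion molecule, held 13.7 and 78.1 in set 1 and 19.7 and 83.9 in set 2 (log2 2.13 ± 0.33). Other adhesion and neuronal lists lay near all genes: voltage-gated ion channels were enriched in 28 of 110 and lower in 14 (median 0.24), integrins in 3 of 23 and lower in 5, and claudins and other junction proteins in 8 of 41 and lower in 5. Receptors for neurotransmitters were enriched in 39 of 82 and lower in 7. Within them, genes of GABA receptors, which are inhibitory chloride channels for the most part, were enriched in 11 of 17 (median 1.19), glutamate receptor genes in 13 of 26 (0.80) and acetylcholine receptor genes in 6 of 17 (-0.03). GRIN2B, an NMDA receptor subunit gene, held 25.2 and 54.1 in set 1 and 12 and 81.0 in set 2 (log2 2.42 ± 0.35). HTR7, a serotonin receptor gene with 50 CG in its RefSeq promoter, had 14 and 30 input reads and 0 and 1 H3K9me3 reads, 4.22% of the 23.7 predicted (exact Poisson interval 0.107% to 23.5%).

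Olfactory receptor genes, which are silent outside sensory neurons, were enriched in 106 of 277 and lower in 2, with a median of 0.77. Without the block, 8.30% of them were enriched, against 7.67% of all genes, and with the trend method 20.2% against 16%. On chromosome 1, 22 of 38 were enriched, and on chromosome 14, 3 of 21. OR10AD1 on chromosome 12 held 27.4 and 132 RPM in set 1 and 22.1 and 87.8 in set 2 (log2 2.04 ± 0.29). Olfactory receptor windows held a median of 26 input reads in set 2, fewer than the 44 of all genes, and the part of depth in their count was not tested. Keratin-associated protein genes, which hair follicles use, were enriched in 22 of 67 and lower in 0 (median 0.55), but without the block 4.48% were enriched and with the trend method 11.9%, both below the share of all genes. The keratins themselves, with 8 enriched and 7 lower of 48, had a median of 0.19. KRT7, a keratin of simple epithelia (strand not known), held 13.7 and 0 RPM in set 1 and 61.0 and 1.95 in set 2, both H3K9me3 libraries below both inputs. Its 2 reads were 3.09% of the 64.8 predicted (exact Poisson interval 0.374% to 11.1%). Other keratins planned as markers (strands not given here) went both ways. KRT5 and KRT14 lay above input at log2 0.87 ± 0.37 and 0.95 ± 0.41, and KRT8 and KRT19 below it at -1.52 ± 0.40 and -0.94 ± 0.35. In set 1 alone, KRT5, KRT8 and KRT19 lay on the opposite side of input. Receptors of leukocytes were enriched in 49 of 147 and lower in 16, and without the block 4.76% were enriched. Among them 6 of 8 KIR and LILR genes and 7 of 11 SIGLEC genes were enriched, against 12 of 67 genes named as CD antigens.

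Developmental regulators split by family. Homeobox genes outside the HOX clusters were enriched in 51 of 109 and lower in 12 (median 0.58), and HOX genes in 2 of 19 and lower in 6 (median -0.72). Of 5 DLX genes, which pattern limbs and jaw, 0 were enriched and 3 lower, and of 11 NKX genes 6 were enriched and 1 lower. VSX1, a retinal regulator, held 6.86 and 48.1 RPM in set 1 and 17.9 and 120 in set 2 (log2 2.72 ± 0.33). IRX4, a heart regulator whose window is on the opposite strand, held 36.6 and 144 in set 1 and 63.4 and 377 in set 2 (log2 2.51 ± 0.16). Their H3K9me3 libraries lay above both inputs. At the other end, HOXA11 (opposite strand) had 7 and 65 input reads and 0 and 3 H3K9me3 reads, 7.06% of the 42.5 predicted (exact Poisson interval 1.46% to 20.6%). FOXL2, an ovarian regulator (opposite strand), had 11 and 164 input reads and 0 and 7 H3K9me3 reads (log2 -3.62 ± 0.58). SOX genes had a median of 0.87 over 12 members, with SOX3 at log2 2.47 ± 0.29, and GATA genes a median of -1.44 over 5 members, with GATA2 (opposite strand) at -3.38 ± 0.62.

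Imprinted genes, of which normally 1 parental copy is silent, were enriched in 16 of 30 and lower in 2 (median 0.85). On chromosome 15, 6 of 8 were enriched with a median of 2.11, and on other chromosomes 10 of 22 with a median of 0.58. The SNRPN window named here, in the Prader-Willi and Angelman region, held 25.2 and 126 RPM in set 1 and 22.1 and 91.7 in set 2 (log2 2.10 ± 0.29). PHLDA2, a growth-restraining gene (strand not known), was the lowest member at log2 -3.28 ± 0.65. Counts cannot tell the parental copies apart. MicroRNA genes were enriched in 73 of 155 and lower in 19. Their share differed by place: all 19 tested between 54 and 55 Mb of chromosome 19 were enriched (median 1.69), as were 6 of 7 in the cluster of chromosome 14 (1.49) and 19 of 23 on X (1.29), where 54.1% of all genes were, against 28 of 100 in other places, where 16 were lower. MIR524 of the chromosome 19 cluster (strand not known, in a window wider than 2100 bases) held 64.0 and 276 in set 1 and 58.6 and 275 in set 2 (log2 2.2 ± 0.17), with no overlap between input and H3K9me3. Neighbouring windows of these clusters lie close together, so their genes are not independent. Small nucleolar RNA genes were enriched in 34 of 82 and lower in 3. Only 12 microRNA genes and 0 small nucleolar RNA genes had a window of matched strand, so most of these values cannot be tied to the gene and not to its host or neighbour.

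Lists of housekeeping genes and the immediate-early list had more members below input than above it. So did windows of RefSeq protein-coding genes at large, with 31.0% lower and 17.8% enriched. Among genes of matched strand, those with 24 to 32 CG in the RefSeq promoter were lower in 43.0%, and those with 33 to 69 in 44.0%. The part of CpG number in the lists was not tested. Genes listed as immediate-early transcription factors were lower in 25 of 44 and enriched in 3, with a median of -1.31. The list also takes in KLF, HES, ID and DUSP families, whose members are not all immediate-early or transcription factors. Of its 13 KLF genes 4 were lower and 2 enriched (median -0.80). Of 5 FOS and JUN genes, 4 were lower, with a median of -3.77. JUNB held 22.9 and 0 RPM in set 1 and 60.4 and 0.976 in set 2. Its single H3K9me3 read was 1.52% of the 65.7 predicted (exact Poisson interval 0.0385% to 8.48%). ID4, an inhibitor of bHLH factors, was the highest member at log2 1.33 ± 0.41, a call lost without the block (limma adjusted p = 0.11) and with the trend method (0.25). Genes of the spliceosome, which removes introns, were lower in 27 of 52 and enriched in 3 (median -1.36). LSM4, which encodes a protein of the U6 snRNA ring, had 19 and 58 input reads and 0 and 1 H3K9me3 reads, or 2.34% of the 42.8 predicted (exact Poisson interval 0.0592% to 13.0%). In both genes, both H3K9me3 libraries lay below both inputs. The spliceosome list also held SNRPN, an enriched gene of the imprinted region.

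Histone genes used in S phase were lower in 18 of 38 and enriched in 6 (median -1.18). The H2B genes lay lowest among them, with 6 of 8 lower and a median of -1.73, and the H4 genes had a median of 0.18 with 2 of 10 lower. DNA replication and cell cycle genes were lower in 30 of 82 and enriched in 8 (median -0.63). Proteasome subunit genes were lower in 18 of 36 and enriched in 3, aminoacyl-tRNA synthetase genes lower in 10 of 19 and enriched in 0, and translation factor genes lower in 20 of 44 and enriched in 3. KARS, the lysyl-tRNA synthetase gene, held 66.3 and 12 RPM in set 1 and 106 and 10.7 in set 2 (log2 -3.07 ± 0.44). Mitochondrial ribosomal protein genes were lower in 25 of 57 (median -0.91), oxidative phosphorylation genes in 24 of 61 (-0.86) and cytosolic ribosomal protein genes in 25 of 60 (-0.69). Exceptions stood out within these lists. MRPS5, a mitochondrial ribosomal protein gene, held 11.4 and 156 in set 1 and 17.3 and 81.0 in set 2 (log2 2.51 ± 0.34), and RPL12 41.2 and 144 in set 1 and 45.5 and 145 in set 2 (log2 1.70 ± 0.22). Both stood above input in each set. Without the block, 34.1% of genes on the immediate-early list and 25.0% of spliceosome genes were lower, against 10.8% of all genes. On windows of matched strand alone, where the genes they are set against differ as well, the distance from all genes was -0.66 for immediate-early and -0.88 for spliceosome genes, in place of -1.44 and -1.48, with 20 of 38 and 21 of 41 lower.

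The machinery of the mark was itself mixed, with 6 of 35 genes enriched, 6 lower and a median of 0.07. PRDM9, a histone methyltransferase gene of meiotic cells, held 43.5 and 174 RPM in set 1 and 44.3 and 237 in set 2 (log2 2.35 ± 0.20), and no input reached an H3K9me3 library. EHMT1, which encodes an enzyme for mono- and dimethylation of lysine 9, stood at 1.46 ± 0.22, with a limma adjusted p of 0.055 without the block. KDM4B, a demethylase gene, had 6 and 65 input reads and 0 and 1 H3K9me3 reads, 2.37% of the 42.1 predicted (exact Poisson interval 0.0601% to 13.2%). SUV39H2 lay at -2.11 ± 0.62 (limma adjusted p = 0.0025) and TRIM28 (strand not known) at -1.68 ± 0.53 (adjusted p = 0.0050, and 0.060 without the block). SUV39H1, EHMT2 and KDM4C (strands not given here) lay at 0.52 ± 0.30, 0.27 ± 0.40 and 0.31 ± 0.50. In each of them the sets lay on opposite sides of input. SETDB1, CBX1, CBX5 and KDM4A did not pass the test, with log2 values of -0.29 ± 0.40, -0.33 ± 0.37, 0.27 ± 0.34 and -0.50 ± 0.39, and each of these signs turned under 1 of the other scalings. Of 8 genes chosen to follow epithelial and mesenchymal states, 5 were enriched, 2 lower and 1 not called, against 26.2% enriched among all genes. The planned markers EPCAM, FN1 and TP63 (strands not given here) are not among these 8. They lay within 1 SE of input, at log2 -0.09 ± 0.39, 0.30 ± 0.59 and -0.09 ± 0.44. CDH2 (N-cadherin) held 25.2 and 42.1 RPM in set 1 and 20.3 and 82.0 in set 2 (log2 1.84 ± 0.31). The repressors ZEB1 (opposite strand), TWIST1 (strand not known) and ZEB2 (opposite strand) stood at 2.11 ± 0.39, 1.25 ± 0.33 and 1.21 ± 0.39, and without the block the calls of TWIST1 and ZEB2 were lost (limma adjusted p = 0.11 and 0.12), as was that of ZEB1 with the trend method (0.070). CDH1, the E-cadherin gene (strand not known), stood at 0.46 ± 0.17, a call lost without the block (limma adjusted p = 0.49), with the trend method and under other scalings, one of which turned its sign. SNAI1 and SNAI2 (strands not known), also repressors of CDH1, lay at -1.86 ± 0.39 and -3.03 ± 0.72, and VIM, the vimentin gene (opposite strand), at 0.56 ± 0.37 did not pass the test and turned sign with the deposited constants. ACTB, the beta-actin gene (strand not known), held 36.6 and 0 in set 1 and 38.3 and 10.7 in set 2 (log2 -2.19 ± 0.59).

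By chromosome, X stood apart. Of its 1303 windows tested, 48.3% were enriched and 4.30% lower, with a median of 0.75. Chromosome 5 followed with 30.2% enriched and 20.9% lower. Chromosome 17 had the smallest enriched share at 12.8%, with 38.2% lower, and chromosomes 16 and 22 had 41.1% and 36.1% lower. Chromosome 19 was high in both directions, with 28.8% enriched and 31.5% lower, and without its zinc finger genes 21.3% and 36.5%. The share enriched on X was 2.11 times that of all windows here, 1.92 times without the block and 2.19 times with limma's trend method.

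**Figure D3:**
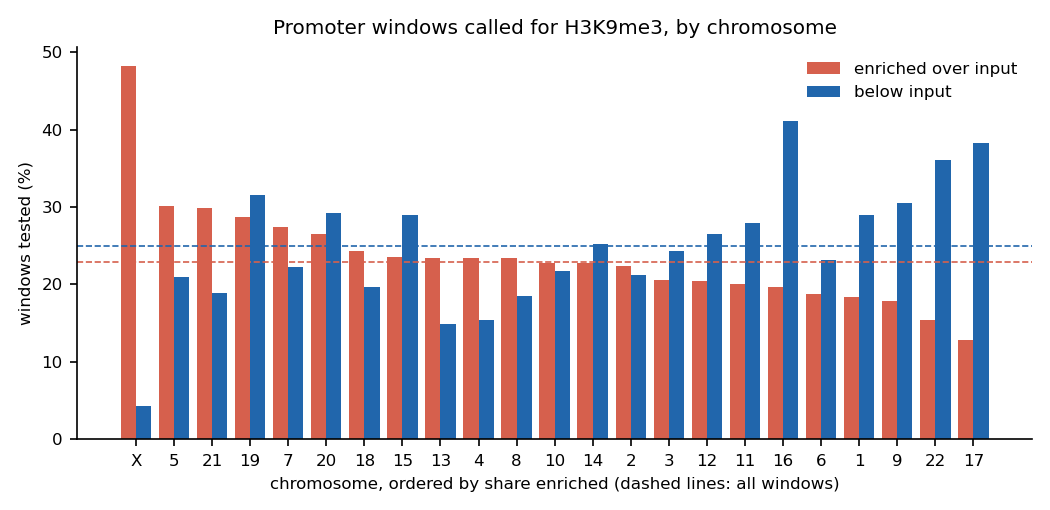
Share of promoter windows tested that were enriched (orange) or below input (blue), by chromosome in order of the share enriched; dashed lines give all windows, 22.9% and 25%. X stands alone at 48.3% enriched and 4.30% lower, and chromosome 17 lies at the other end with 12.8% and 38.2%.

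H3K9me3 was higher where promoters lie far apart. Windows were split into 5 bands by how many other windows start within 500 kb. In the emptiest band, with 0 to 9 neighbours, 37.7% were enriched and 10.9% lower (median 0.62), and in the densest, with 32 to 126, 15.4% and 38.4% (median -0.51). The shares moved in order through the bands between. Input reads moved too, from a median of 30 per window in set 2 in the emptiest band to 54 in the densest, and their part in the result was not tested. Within 2 Mb of a centromere gap 34.8% of 923 windows were enriched and 18.2% lower, and the share enriched was between 19.2% and 25.7% in all bands farther away. Within 2 Mb of the outermost windows of a chromosome 29.4% were enriched, from 2 to 5 Mb 31.5%, from 5 to 10 Mb 30.3%, from 10 to 20 Mb 23.2% and beyond 20.6%. Where a chromosome's first window lay beyond 10 Mb, it stood in for the centromere gap and did not count as outermost. On chromosome 21 the first window, at 9681191, did count.

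CpG number in the promoter went with the mark in the opposite direction. For 12060 genes whose window lay on the strand of a RefSeq promoter, 18.8% were enriched and 32.4% lower. In the band with 0 to 9 CG in 300 bases, 26.6% were enriched and 12% lower (median 0.33). With 10 to 23 the shares were 20.7% and 32.8%, with 24 to 32 13.5% and 43.0%, and with 33 to 69 13.3% and 44.0% (median -0.80). Across genes rho was -0.30, as a description over genes of the same 4 libraries. Input did not fall with CpG number: its median was 10 reads in each band in set 1, and rose from 39 to 52 in set 2. Zinc finger genes of chromosome 19 were enriched in 13 of 14 in the lowest band, 66 of 114 and 33 of 49 in the middle ones and 7 of 16 in the highest. SLIT2, with 36 CG, and FOS, with 30, show that a CpG-rich promoter can lie at either end.

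**Figure D4:**
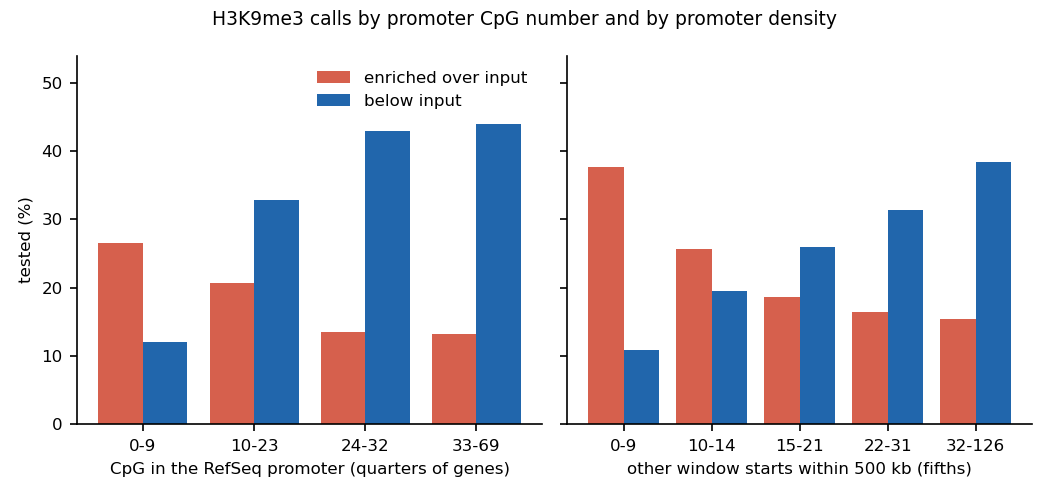
Share of genes (left, by number of CG dinucleotides in the RefSeq promoter) and of windows (right, by number of other windows starting within 500 kb) that were enriched (orange) or below input (blue). From left to right in each panel the enriched share falls, from 26.6% to 13.3% and from 37.7% to 15.4%, and the lower share rises, from 12% to 44.0% and from 10.9% to 38.4%.

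Enriched windows often stood side by side. After overlapping windows were merged, 34005 groups remained, of which 23.7% were enriched and 22.6% lower. Runs of at least 5 enriched neighbours numbered 218 and held 20.1% of all enriched groups, and runs of at least 5 lower neighbours numbered 114 and held 8.85% of lower groups. With a minimum of 3 neighbours the enriched runs were 707 with 40.0% of enriched groups, and with 8 they were 64 with 9.34%. X held 26 of the 218 runs, chromosome 5 held 23 and chromosome 19 held 20.

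The longest run covered 50 groups on chromosome 19, from 53238207 to 54292059 in hg19, and had a median of 1.72. It starts at ZNF611 and crosses zinc finger genes, the vomeronasal receptor gene VN1R4 and the microRNA cluster that holds MIR524, up to MIR371. In its 56 windows, 54 had a value above 0 in both sets. The run on chromosome 15, from 23891075 to 25523590, held 31 groups with a median of 2.19, from MAGEL2 and NDN through SNRPN to the many windows of SNHG14, which gives rise to small nucleolar RNAs. All 32 of its windows were above 0 in both sets. The third, on chromosome 7 from 56183993 to 63767937, crosses the centromere gap and holds 26 groups with a median of 2.14, among them ZNF479, ZNF716 and ZNF679. All 32 of its windows were above 0 in both sets as well. Runs were built from groups called enriched in these same sets, so such counts partly follow from the choice. Of all enriched windows, 92.8% were above 0 in both sets. Another run on chromosome 19, from 22034730 to 23600873, holds 18 groups with a median of 2.21, with ZNF43, ZNF208 and ZNF91.

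**Figure D5:**
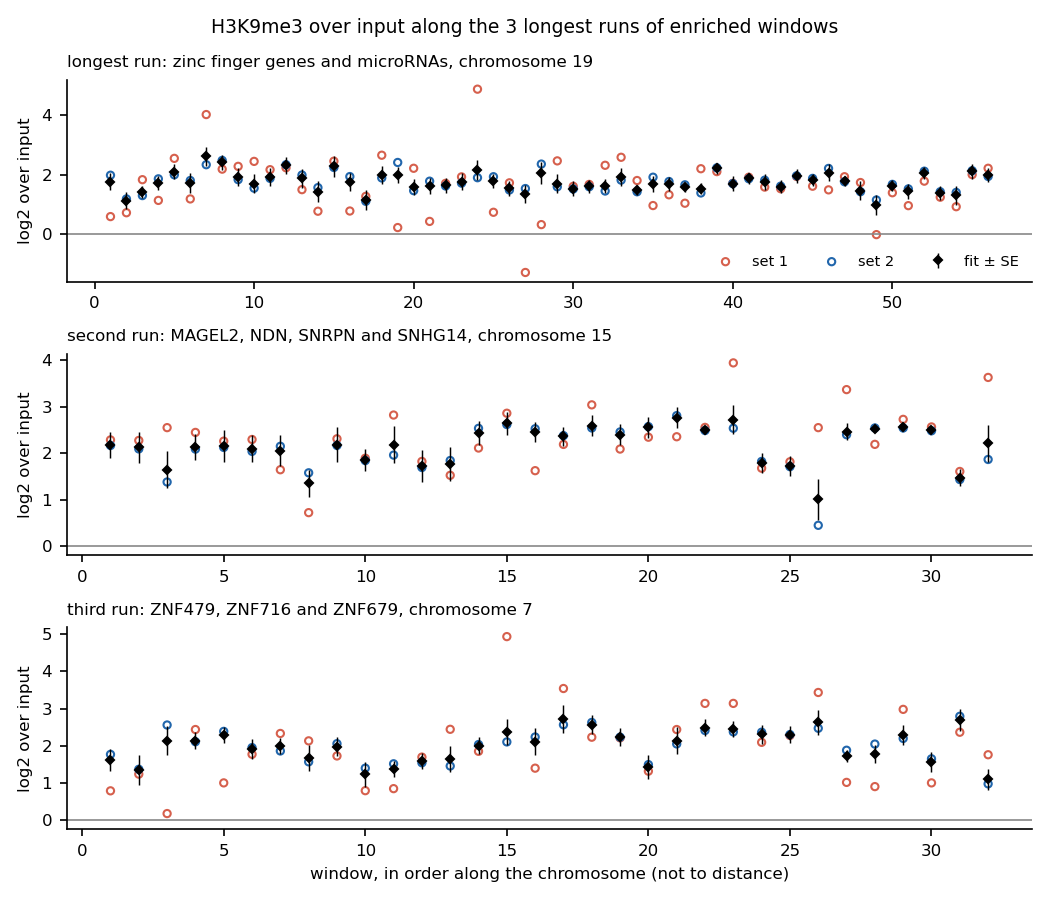
Log2 of H3K9me3 over input for each window of the 3 longest enriched runs, in order along the chromosome and not to distance; diamonds are the fit with its SE, orange circles set 1 and blue circles set 2. Medians over the groups of the runs are 1.72, 2.19 and 2.14, and set 1 scatters more than set 2. Above 0 in both sets are 54 of 56, 32 of 32 and 32 of 32 windows, against 92.8% of all enriched windows.

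Other runs held genes of several kinds. On X from 145072355 to 146362862, 14 groups covered microRNA genes such as MIR891A and MIR506 (median 1.55). On chromosome 1, a run of 12 groups covered RYR2, the heart ryanodine receptor gene, and CHRM3 (median 1.48). On chromosome 18, 15 groups from 5630540 to 7995668 included EPB41L3 and L3MBTL4 (median 1.45). On chromosome 7, 13 groups from 157256925 to 158383421 were mostly windows of PTPRN2, and on chromosome 5, 14 groups from 2835153 to 4512475 included IRX1. The run of 11 groups on chromosome 16 from 31971409 to 35136444, next to the centromere gap, had a median of 2.18.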

How the data were processed

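Reads of H3K9me3 and input libraries were counted by the authors over promoter windows and deposited as log2 values, 1 table per replicate set, per the file headers. FastQC 0.11.5, Bowtie2 2.2.9, SAMtools 1.3 and hg19 are named in the submitters' processing notes. In each library every deposited log2 value was the log2 of a whole read number plus a constant (100% within a tolerance of 0.01), with 0 reads entered as 0.9. Neither the origin of these constants nor any duplicate filter is given in the sources used here. Recovered reads were used in place of the deposited log2 values. The planned test for log2 values was kept: limma 3.58.1 (R 4.3.3) with voom weights, scaling by trimmed mean of M values, and the replicate set as a block. The filter on low windows stood at the equivalent of 5 reads for a median library, and 36524 of 38157 passed. With 1 residual degree of freedom, limma found no spread of variances between windows (infinite prior degrees of freedom), so every window takes its variance from 1 common trend. Tested on simulated data, false calls stayed under the threshold where as many windows differed as here, but not where few did. The trend method's counts therefore stand beside the main ones. The simulated reads had a fixed dispersion and no difference between sets beyond depth, so they cannot give the rate of false calls here. The sets pair by their labels, and deviations within a set correlated (r = 0.269). Named genes were the 12 highest and 12 lowest called windows, without clone-named symbols, and up to 3 at each end of each list. All of these had to reach minimum input reads and to have the same sign in both sets, which fixed that agreement. A set of chosen genes and members of the longest runs were also named. SPACA7, TEX19 and other list members follow the rule for lists. The genes of the promoter sequences, the subfamilies and the exceptions were chosen after their values were seen, and the members and lists were chosen with earlier results of these data known. Alternatives were other scalings, filters, models and left-out libraries, plus 2 choices of a gene's window added after seeing the data. Python 3.11.15, pandas 2.3.3, scipy 1.17.1 and matplotlib 3.10.9 were also used. Intervals cover counting error only. Windows of the migrated fraction entered 1 alternative only.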

Additional observations from a re-analysis of the deposited data

How the results depend on the processing

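The counts of 8371 enriched and 9128 lower windows moved with the scaling, since it sets the zero point. They were 2767 and 15086 with the deposited constants, and 15224 and 5280 when scaled to ribosomal and oxidative phosphorylation promoters. Without the replicate block 2294 and 4473 windows passed, all of them also called with it. The trend method gave 4954 enriched windows, and 1 fit over all 8 libraries gave 3130. Leaving out 1 library at a time, without the block, gave from 6 to 1835 enriched windows and from 0 to 5499 lower ones. The other counts were within 1.5 times. Called in all 5 of the main, unblocked, trend, quasi-Poisson and 8-library fits were 2123 enriched and 4110 lower windows. Of 52 named windows with a call, 8 lost it without the block, VN1R4 (limma adjusted p = 0.072) among them, and 4 with the trend method. With the deposited constants 4 lost it and CDH1 turned to -0.19. PTTG1IP, with 0 H3K9me3 reads, could not be fitted by the quasi-Poisson model. Of the windows with no call, CBX5 turned to -0.38 and VIM to -0.096 with the deposited constants, and CBX1, KDM4A and SETDB1 to 0.25, 0.083 and 0.29 with the scaling to ribosomal and oxidative phosphorylation promoters; CBX5 and VIM passed the test as enriched with the latter, and CBX1, KDM4A and SETDB1 as lower with the former. Without the set 2 H3K9me3 library 50 of the 52 calls were lost, and CDH1 turned to -0.15; over the left-out libraries its value ran up to 0.76. Set 1 had a median of 3 H3K9me3 reads per window, and its part in this was not tested. Medians of the gene lists relative to all genes turned sign under none of the scalings. Each scaling shifts all windows by nearly the same amount, so this outcome was largely fixed in advance. On windows of matched strand, an alternative chosen after seeing the data, 39 of 47 moved and 7 turned, most of them from near 0, among them solute carriers to 0.22, WNT, FGF and BMP ligands to 0.051, the H3K9 machinery to 0.21 and claudins and other junction proteins to 0.43, while keratins lay at 0.62 in place of 0.062. That alternative also changes which genes form the background. Placing genes with 0 H3K9me3 reads at their bound changed no list's median. No list held more than 1 such gene except the clone-named transcripts with 7, so the medians could hardly move.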

Other observations

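Windows below input also stood in runs, in gene-dense regions. The longest, 11 groups on chromosome 22 from 50607160 to 50781833, had a median of -2.28 and ran from PANX2 through TUBGCP6, HDAC10, MAPK12, MAPK11 and PLXNB2 to PPP6R2. The next had 10 groups each: chromosome 22 from 46372909 to 46646374, from WNT7B to PPARA (median -2.04), and chromosome 17 from 73761207 to 73939119, which holds H3F3B, a gene of the replacement histone H3.3 (median -2.02). These were named after their values were seen.

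Within solute carriers, families differed in level. SLC25 genes, which encode carriers of the inner mitochondrial membrane, were lower in 20 of 41 and enriched in 7 (median -0.81), and SLC6 genes, which encode transporters of neurotransmitters and amino acids, were enriched in 9 of 17 and lower in 2 (median 0.81). Nuclear receptor genes were lower in 16 of 36 and enriched in 10. Immunoglobulin segments were enriched in 54 of 208 and lower in 8, and T-cell receptor segments in 25 of 124 and lower in 12, near the 26.2% enriched among all genes. Protein-coding genes of RefSeq had 17.8% of 23535 windows enriched and 31.0% lower, and windows with no RefSeq match 32.6% and 14% of 11463. Differences between these families were not tested.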
